A study of Bos taurus with 9 samples.

Results

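The genes described here encode the enzymes of glycolysis and of the pentose phosphate pathway, with the genes that steer pyruvate and that draw hexose phosphate into amino sugars and UDP-glucose. They were chosen by name: 36 gene symbols were looked up, case ignored, in the gene name column of a deposited table of 24596 genes. A row was present for 33 of them, and 31 had enough reads to be tested. The symbols ENO1, PKM2 and RPE matched no row, so no values are given under these 3 names. The pyruvate kinase gene PKM had a row of its own and is described below. GAPDH and SLC16A3 had a row but did not pass the filter on low counts.

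The cells, called BEEC in the labels, were primary endometrial epithelial cells of cattle that had been scraped off the lining of 3 uteri in the early luteal phase and frozen after the first passage. After thawing, each layer received 5 morulae on day 4 after fertilisation, and the embryos remained there until day 8. The HIGHGLUC libraries came from BEEC that had carried embryos of the HIGHGLUC regime, the LOWAA libraries from BEEC with embryos of the LOWAA regime, and the control libraries from BEEC with control embryos, with 3 libraries in each group. The labels give no composition for these regimes, and it was the embryos, before co-culture, that were pre-conditioned. All BEEC shared 1 culture medium with fetal bovine serum, and 3 wells were pooled into each sample. The labels disagree on the passage of the cells, which is 1 in their protocols and 2 among their characteristics, and they tie no library to an animal or a separate culture, so every p-value measures only the spread between these libraries.

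Glycolysis splits glucose into pyruvate in the cytosol, with hexokinase and phosphofructokinase as its main control points, and lactate dehydrogenase and monocarboxylate transporters deal with the lactate that follows. The pentose phosphate pathway branches off at glucose phosphate, yields NADPH and ribose phosphate, and returns its carbon to glycolysis through transketolase and transaldolase. In the uterus, glucose and lactate of the luminal fluid are among the nutrients of the embryo before implantation.

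The 9 libraries held 2887097 to 13969325 exon reads, and 3.81% to 5.37% of these matched more than 1 place in the genome. Control replicate 5 had the fewest reads, with HIGHGLUC replicate 14 next at 6927123. The median correlation of control replicate 5 with the other libraries was also the lowest, at 0.934 beside 0.964 or more. A gene with no reads in a library could still have had up to 3 reads there, which is 0.215 to 1.04 CPM (reads scaled to library size) depending on the library; such limits cover counting error only. Of 11839 genes tested, 0 passed an adjusted p of 0.05 in any of the 3 comparisons between groups (edgeR quasi-likelihood test, Benjamini-Hochberg), and 353, 474 and 376 genes had an unadjusted p under 0.05 for HIGHGLUC over control, LOWAA over control and HIGHGLUC over LOWAA. DESeq2 called 0, 4 and 3 genes. The authors' deposited table, based on Baggerley's test, calls 11 genes for HIGHGLUC over control, 77 for LOWAA over control and 44 for LOWAA over HIGHGLUC at a corrected p of 0.05. The labelled cell type was checked on markers: KRT8, KRT18, KRT19, KRT7 and CDH1 of 10 epithelial markers were above 1 CPM, EPCAM had 13 reads in all, and CLDN7 and GRHL2 had 0. All 10 stromal fibroblast markers were above 1 CPM too, with COL3A1 at 3997 to 5999 CPM beside 4239 to 4765 CPM for KRT8. In bulk libraries such as these, fewer cells of a type and less RNA per cell cannot be told apart. Library numbers ran in 3 sets, each with 1 library of every group: replicates 6, 8 and 5 (HIGHGLUC, LOWAA, control) were set 1, replicates 10, 12 and 9 set 2, and replicates 14, 15 and 13 set 3. The labels do not say what these numbers mean.

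Levels are given as RPKM where genes are compared with each other (TMM-scaled CPM per kilobase of the exon length in the table) and as TMM-scaled CPM where groups are compared for 1 gene. The tested members were mostly high: 23 of 31 lay above the median level of all tested genes, and 13 of 31 lay in the top 10%. Their median level was 39.5 RPKM, beside 13.6 RPKM over all 11839 tested genes. They also varied little, with a median coefficient of variation of 8.40% over the 9 libraries, beside 11.9% for all tested genes. This comparison was not matched for level. Together the members took 0.701% to 0.735% of the exon reads of a library. Their share was 0.701% to 0.735% in HIGHGLUC, 0.712% to 0.735% in LOWAA and 0.714% to 0.735% in control libraries, so the 3 groups overlapped.

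PKM, the pyruvate kinase gene and the last step of glycolysis, had by far the most transcripts per length, at a mean of 906 RPKM. It measured 967, 797 and 935 RPKM in HIGHGLUC libraries, 975, 827 and 898 RPKM in LOWAA libraries and 926, 903 and 926 RPKM in control libraries. Its lowest library stood above the highest library of every other member. The next were ALDOA at 285 RPKM, LDHA at 271 RPKM and PGAM1 at 270 RPKM, and the ranges of ALDOA, LDHA and PGAM1 overlapped. The place of LDHA rests on total reads, of which 46.6% matched 1 place in the genome. LDHB (230 RPKM), PGK1 (206 RPKM), TALDO1 (200.2 RPKM), TPI1 (189.7 RPKM), TKT (159 RPKM), GFPT2 (146 RPKM) and PGD (130.4 RPKM) followed, each overlapping the next in its range over libraries. GPI (95.9 RPKM) and SLC16A1 (85.5 RPKM) came after a gap below PGD. The order went on with UGP2 (57.9 RPKM), HK2 (56.6 RPKM), PFKL (39.5 RPKM), HK1 (38.8 RPKM), PDHB (37.9 RPKM), GFPT1 (29.5 RPKM), PDHA1 (27.5 RPKM), PFKFB2 (27.0 RPKM), PFKP (23.4 RPKM), ALDOC (20.8 RPKM) and RPIA (13.2 RPKM). At the low end were PFKM (9.37 RPKM), PFKFB3 (8.92 RPKM), PDK2 (6.19 RPKM), PDK1 (5.28 RPKM), ENO2 (3.91 RPKM), PFKFB4 (2.68 RPKM) and PDK4 (1.20 RPKM). Among tested neighbours in this order, 8 pairs had ranges that did not overlap.

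**Figure D1:**
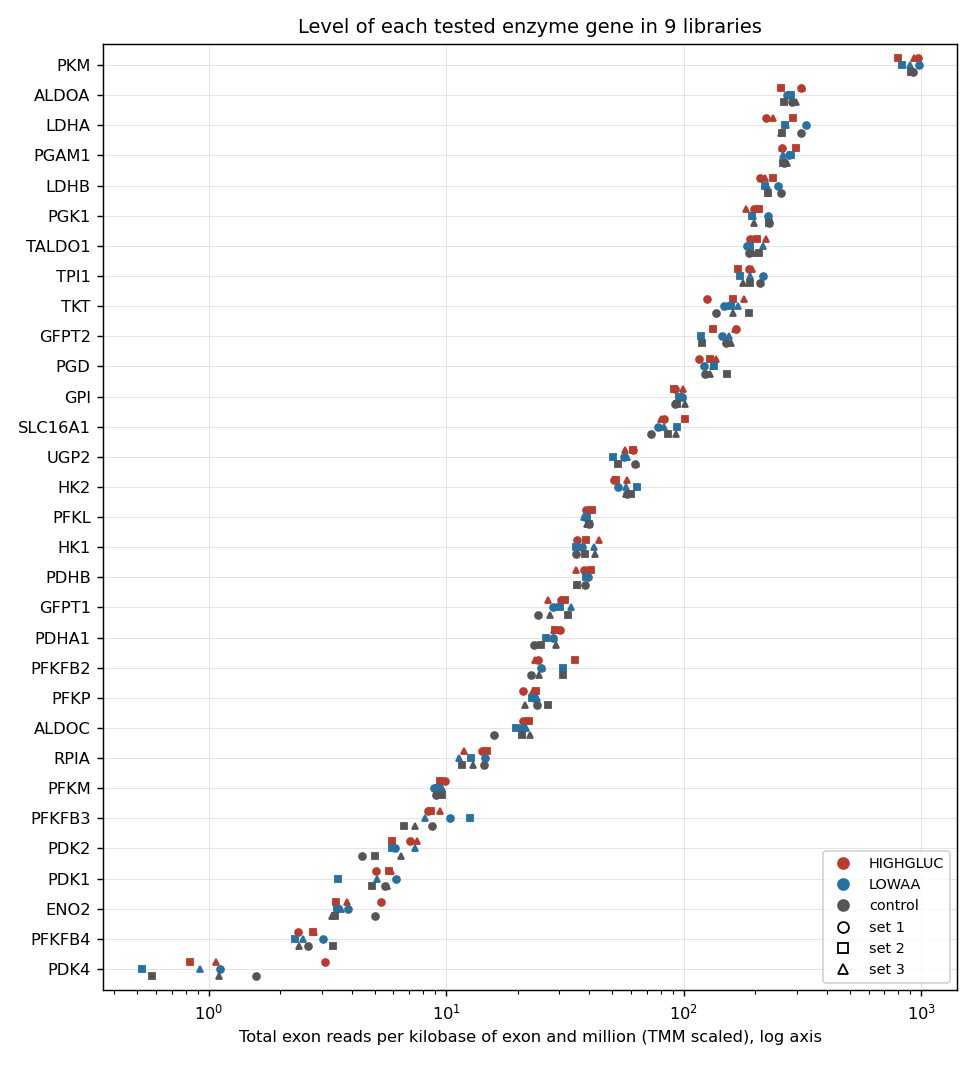
Level of the 31 tested members in each of the 9 libraries as RPKM on a log axis, with colour for the group and marker shape for the set of library numbers. PKM lies alone at 797 to 975 RPKM, PFKL and PFKM show narrow spreads, and PDK4 spreads most, from 0.525 to 3.08 RPKM.

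The 2 untested rows held few reads. SLC16A3, a lactate exporter of highly glycolytic cells, had 57 reads in all 9 libraries, a mean of 0.310 RPKM. The row named GAPDH had 1 read in all, which is no measure of the glycolytic dehydrogenase of that name: the row has an exon length of 849 bases and lies on a chromosome other than the one RefSeq gives for the gene. The other 32 members lie on the chromosome that RefSeq gives. No level of GAPDH, and none of ENO1, the common enolase, can therefore be given.

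No member passed the test in any comparison between groups. Against a background of 0% of all genes called, 0 of 31 members were called for HIGHGLUC over control, for LOWAA over control and for HIGHGLUC over LOWAA. At an unadjusted p under 0.05 there were 0 members for HIGHGLUC over control (2.98% of all genes), 1 member for LOWAA over control (4.00% of all genes) and 0 members for HIGHGLUC over LOWAA (3.18% of all genes). The median log2 fold change of the members was 0.04 for HIGHGLUC over control, with 20 positive and 11 negative, beside 0.00 over all tested genes, of which 50.0% were positive. For LOWAA over control it was -0.01, with 13 positive and 18 negative, and for HIGHGLUC over LOWAA it was 0.03, with 17 positive and 14 negative; all tested genes had medians of 0.00 in both, with 50.9% and 49.9% positive. The comparisons share libraries and are not independent of each other. The edgeR F-test for any difference among groups called 0 members, with 1 at an unadjusted p under 0.05 (PFKFB3, unadjusted p = 0.0302, adjusted p = 1.00). The authors' deposited table also calls 0 of the 33 member rows, with a smallest corrected p of 1.0 in each comparison. Signed folds of the members in the authors' deposited table run from -1.12 to 1.57 for HIGHGLUC over control, from -1.26 to 1.38 for LOWAA over control and from -1.98 to 1.18 for LOWAA over HIGHGLUC.

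Errors given with log2 fold changes are standard errors of the edgeR fit. The 95% interval of the fold change lay within 1.5-fold of no change, in both directions, for 27 of 31 members for HIGHGLUC over control, 27 for LOWAA over control and 28 for HIGHGLUC over LOWAA. It lay within 2-fold for 30 members in each comparison. Over all tested genes, 8328, 8330 and 8366 of 11839 had intervals within 1.5-fold, and 10456, 10600 and 10518 had intervals within 2-fold. These shares were not matched for level. The widest intervals belonged to PDK4, whose fold for HIGHGLUC over LOWAA had a 95% interval of 0.836 to 4.56.

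**Figure D2:**
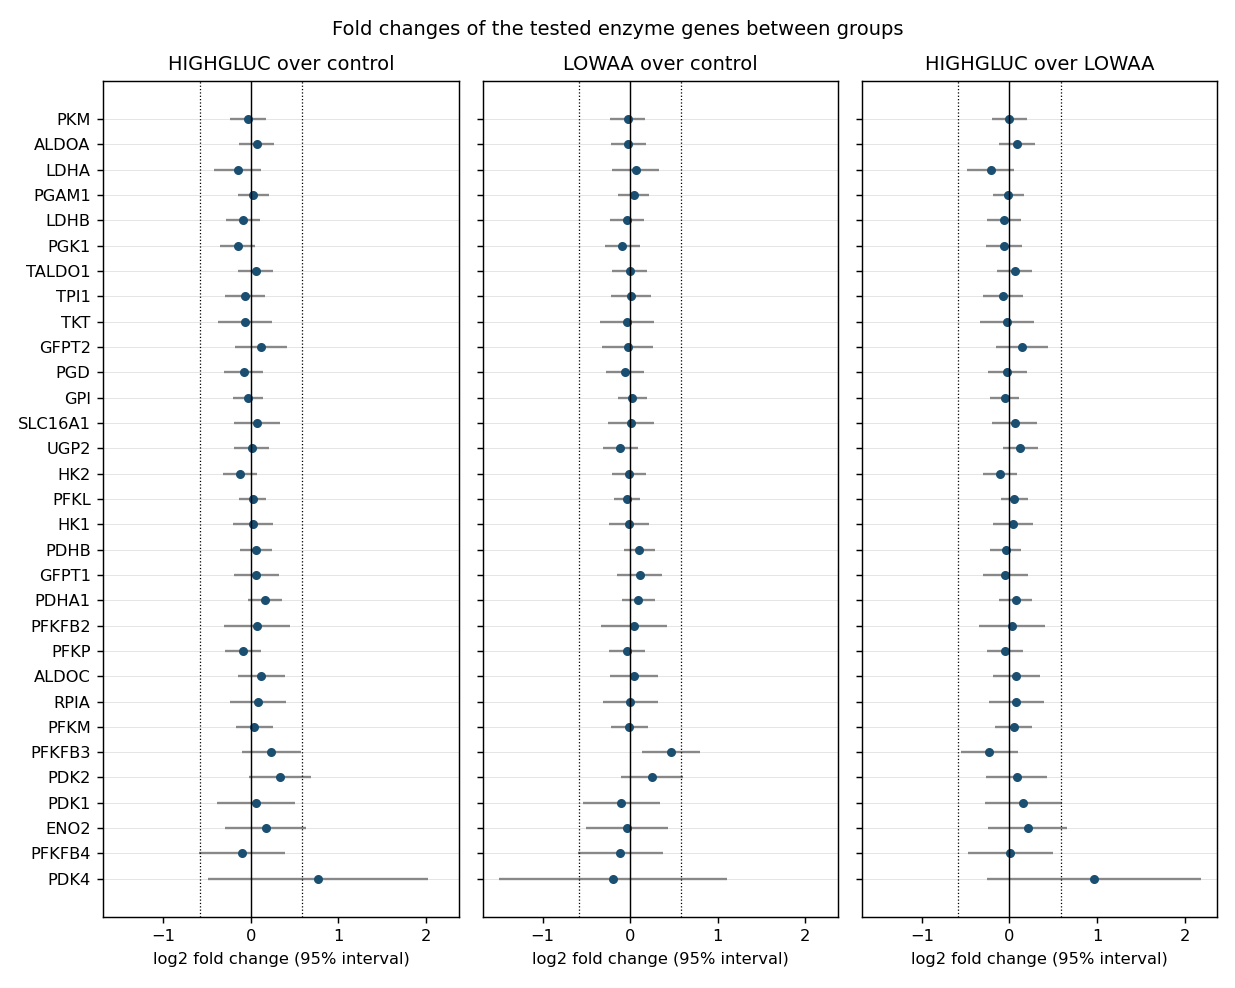
Log2 fold change of each tested member (dot) with its 95% interval (line) from the edgeR fit, for HIGHGLUC over control, LOWAA over control and HIGHGLUC over LOWAA; members run from the highest level at the top to the lowest at the bottom, and dotted lines mark 1.5-fold. Most intervals lie inside the dotted lines, and the widest belong to PDK4, the member with the lowest level.

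At the entry of glycolysis, hexokinase traps glucose in the cell as its phosphate and GPI turns that into fructose phosphate. HK2, the inducible hexokinase, stood above HK1, the housekeeping one, in every library, with an RPKM ratio of 1.32 to 1.43 in HIGHGLUC, 1.36 to 1.80 in LOWAA and 1.34 to 1.64 in control libraries. GPI measured 186, 185 and 201 CPM in HIGHGLUC, 199, 194 and 202 CPM in LOWAA and 187, 191 and 206 CPM in control libraries, and the groups overlapped. The log2 fold changes of HK1, HK2 and GPI lay between -0.12 and 0.03 for HIGHGLUC over control and between -0.02 and 0.03 for LOWAA over control.

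Phosphofructokinase, the committed step of glycolysis, is built from liver, muscle and platelet subunits. PFKL, the liver subunit, supplied 52.2% to 56.1% of the summed RPKM of the 3 genes, PFKP 30.1% to 35.2% and PFKM 12.4% to 14.2%. Their coefficients of variation over the 9 libraries were 2.46% for PFKL, 3.22% for PFKM and 7.26% for PFKP, beside the member median of 8.40%. PFKL measured 109, 115 and 113 CPM in HIGHGLUC, 108, 109.7 and 107 CPM in LOWAA and 111, 111 and 109.8 CPM in control libraries. Every LOWAA library thus lay below every control library, by a log2 fold change of -0.04 ± 0.07 (SE; unadjusted p = 0.609, adjusted p = 1.00, edgeR). PFKL was the only one of 31 members in that position for LOWAA over control, where 5.02% of all genes lay entirely below.

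The PFKFB genes encode the bifunctional enzymes that make and break the fructose bisphosphate that activates phosphofructokinase. PFKFB2 was the highest of them at 65% to 75.7% of their summed RPKM, with PFKFB3, the form with the strongest kinase activity, at 16.1% to 27.3% and PFKFB4 at 5.01% to 8.15%. PFKFB2 measured 87.5, 125 and 85.2 CPM in HIGHGLUC, 89.6, 111 and 90.8 CPM in LOWAA and 81.5, 112 and 88.3 CPM in control libraries. The highest library of each group was the one in set 2. Reads in introns made up 67.7% to 71.6% of all PFKFB2 reads in a library, whereas introns held 7.05% to 13.7% of the reads of the libraries as a whole, so most PFKFB2 reads did not come from annotated exons.

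PFKFB3, located on chromosome 13 from 17380742 to 17406594 (UMD3.1, as the table gives it), had the smallest p of any member. It measured 45.5, 54.8 and 35.5 CPM in LOWAA libraries and 38.1, 29.0 and 32.4 CPM in control libraries. LOWAA replicate 12 was the highest of all libraries and control replicate 9 the lowest, and LOWAA replicate 15 lay below control replicate 5. The means were 45.3 ± 9.67 CPM in LOWAA and 33.1 ± 4.59 CPM in control libraries (SD, n = 3 each), a log2 fold change of 0.47 ± 0.15 (SE; unadjusted p = 0.00958, adjusted p = 1.00, edgeR). The 95% interval of the fold was 1.10 to 1.74. Within sets the log2 difference between LOWAA and control was 0.26, 0.91 and 0.13, positive in all 3, with the largest in set 2. Without LOWAA replicate 12 the log2 fold change was 0.30 (adjusted p = 1.00, edgeR). HIGHGLUC libraries had 36.8, 37.8 and 41.1 CPM, inside the range spanned by the other libraries. For HIGHGLUC over control the log2 fold change was 0.24 ± 0.15 (unadjusted p = 0.149, adjusted p = 1.00, edgeR), with set differences of -0.05, 0.38 and 0.34. For HIGHGLUC over LOWAA it was -0.23 ± 0.15 (unadjusted p = 0.147, adjusted p = 1.00, edgeR), with set differences of -0.30, -0.53 and 0.21. Leaving out LOWAA replicate 12 gave -0.07, and leaving out LOWAA replicate 15 gave -0.38.

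**Figure D3:**
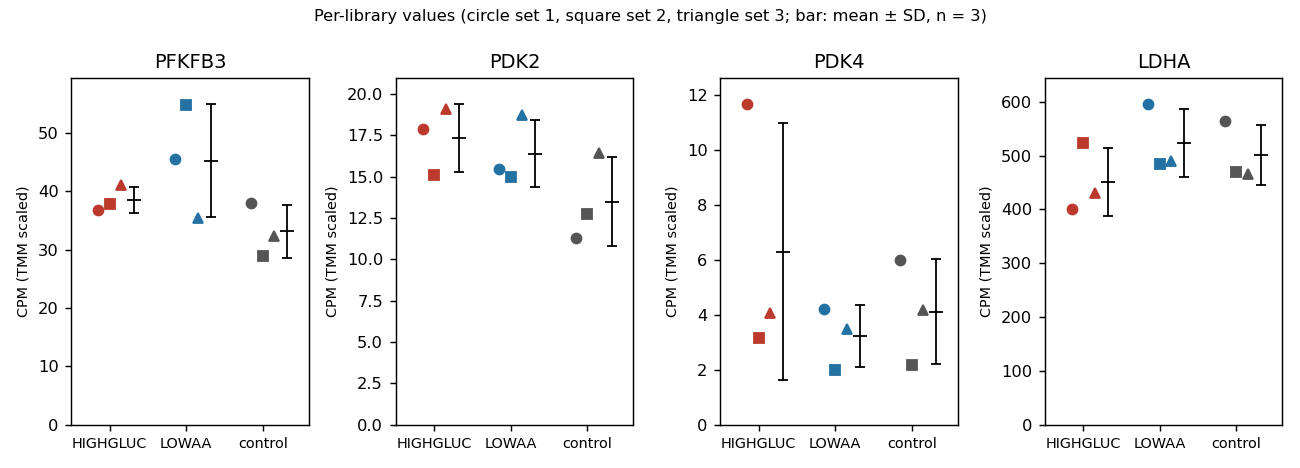
TMM-scaled CPM of PFKFB3, PDK2, PDK4 and LDHA in each library of HIGHGLUC, LOWAA and control, with the mean and SD of each group of 3 beside the points and the set shown by the marker. PFKFB3 in LOWAA spans 35.5 to 54.8 CPM, the high PDK4 mean of HIGHGLUC rests on 1 library at 11.7 CPM, and the groups overlap in all 4 panels.

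Aldolase splits the hexose into 2 trioses, and TPI1 interconverts them. ALDOA, the muscle and general form, exceeded ALDOC, the brain form, by 11.5 to 18.0 times in RPKM over the libraries. ALDOA measured 494, 409 and 501 CPM in HIGHGLUC, 433, 447 and 441 CPM in LOWAA and 453, 418 and 469.9 CPM in control libraries. HIGHGLUC held both the highest and the lowest of these values. The log2 fold changes of ALDOA, ALDOC and TPI1 ranged from -0.06 to 0.12 for HIGHGLUC over control, from -0.02 to 0.04 for LOWAA over control and from -0.07 to 0.09 for HIGHGLUC over LOWAA.

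In the payoff phase PGK1 makes ATP and PGAM1 moves the phosphate group on the way to enolase. PGK1 measured 357, 375 and 332 CPM in HIGHGLUC libraries and 412, 412 and 359 CPM in control libraries. All 3 sets had the lower value in HIGHGLUC, by log2 differences of -0.21, -0.13 and -0.11, but the groups overlapped. The means were 355 ± 21.6 CPM in HIGHGLUC and 394 ± 30.7 CPM in control libraries (SD, n = 3 each), a log2 fold change of -0.15 ± 0.09 (unadjusted p = 0.132, adjusted p = 1.00, edgeR). LOWAA libraries had 407, 351 and 353 CPM of PGK1. PGAM1 varied by 4.81% over the 9 libraries, and 92.0% of its reads were unique. ENO2, the neuronal enolase, was low, at 3.30 to 5.31 RPKM.

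Lactate dehydrogenase turns pyruvate into lactate and back, with LDHA encoding the muscle subunit and LDHB the heart subunit. LDHA measured 401, 523 and 430.2 CPM in HIGHGLUC libraries and 596, 484 and 489.7 CPM in LOWAA libraries. The means were 451 ± 63.3 CPM in HIGHGLUC and 523 ± 62.9 CPM in LOWAA libraries (SD, n = 3 each), a log2 fold change of -0.21 ± 0.12 (unadjusted p = 0.108, adjusted p = 1.00, edgeR). Within sets the log2 difference between HIGHGLUC and LOWAA was -0.57, 0.11 and -0.19, so set 2 went the other way. The log2 fold change was -0.11 without LOWAA replicate 8 and -0.33 without HIGHGLUC replicate 10 (adjusted p = 0.999 and 0.868, edgeR). Control libraries had 565, 469.8 and 467 CPM. Only 46.6% of LDHA reads matched 1 place in the genome, against 79.1% for LDHB, so the total counts of LDHA, on chromosome 29 from 26543860 to 26554318, may hold reads of near-identical copies. The choice of reads changed the order of both genes. With total reads LDHA exceeded LDHB in every library, at 1.05 to 1.21 times in HIGHGLUC, 1.21 to 1.31 times in LOWAA and 1.14 to 1.21 times in control libraries (RPKM). With unique reads LDHA was below LDHB in every library, at 0.632 to 0.774 times in HIGHGLUC, 0.699 to 0.752 times in LOWAA and 0.653 to 0.701 times in control libraries. Unique reads were divided by the full exon length, with no correction for the smaller unique share of LDHA. These ratios therefore do not settle which gene was higher. SLC16A1, which carries lactate and pyruvate across the membrane, had log2 fold changes of 0.07 for HIGHGLUC over control, 0.01 for LOWAA over control and 0.06 for HIGHGLUC over LOWAA.

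Pyruvate dehydrogenase, here its subunit genes PDHA1 and PDHB, passes pyruvate into the mitochondrial cycle, and the kinases PDK1, PDK2 and PDK4 switch it off by phosphorylation. All 5 of these had a positive log2 fold change for HIGHGLUC over control, from 0.06 to 0.77, where 50.0% of all genes did, and 0 of the 5 passed the test. PDK2 was higher in HIGHGLUC in all 3 sets, and the other 4 genes were lower in at least 1 set. The upper end of that span is PDK4, which was highest in HIGHGLUC replicate 6. PDK2, on chromosome 19 from 37177682 to 37193942, had the smallest p of that comparison among members. It measured 17.9, 15.1 and 19.1 CPM in HIGHGLUC, 15.4, 15 and 18.7 CPM in LOWAA and 11.3, 12.7 and 16.5 CPM in control libraries. Control replicates 5 and 9 were the 2 lowest libraries, and control replicate 13 lay within the range of both other groups. The value of control replicate 5, the library with the fewest reads, rests on 32 PDK2 reads. The means were 17.4 ± 2.04 CPM in HIGHGLUC and 13.5 ± 2.67 CPM in control libraries (SD, n = 3 each), a log2 fold change of 0.34 ± 0.16 (unadjusted p = 0.0624, adjusted p = 1.00, edgeR), with set differences of 0.64, 0.24 and 0.21. For LOWAA over control it was 0.25 ± 0.16 (unadjusted p = 0.144, adjusted p = 1.00, edgeR), with set differences of 0.44, 0.23 and 0.18.

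PDHA1, on the X chromosome, had 121 ± 3.71 CPM in HIGHGLUC and 107 ± 11.4 CPM in control libraries (SD, n = 3 each), a log2 fold change of 0.17 ± 0.09 (unadjusted p = 0.0857, adjusted p = 1.00, edgeR). Its libraries had 125, 119 and 118 CPM in HIGHGLUC, 117, 109 and 119 CPM in LOWAA and 98.0, 104 and 120.2 CPM in control libraries, so control replicate 13 was within the HIGHGLUC range. Set differences between HIGHGLUC and control were 0.35, 0.19 and -0.02. Of PDHA1 reads 71.3% were unique, and its span in the table overlaps MAP3K15, which had 128 reads in all. PDHB measured 59.5, 58.2 and 58.6 CPM in LOWAA libraries and 57.8, 53.4 and 53.3 CPM in control libraries. Every LOWAA library lay above every control library, by a log2 fold change of 0.11 ± 0.08 (unadjusted p = 0.225, adjusted p = 1.00, edgeR), and PDHB was the only one of 31 members in that position, where 4.69% of all genes lay entirely above. HIGHGLUC libraries had 56.9, 61.2 and 52.9 CPM of PDHB. For HIGHGLUC over control 0 members lay entirely above (3.78% of all genes) and 0 entirely below (3.57%), and for HIGHGLUC over LOWAA 0 members lay above (4.43%) and 0 below (3.87%).

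PDK4, the kinase that fasting and fatty acids induce in muscle and liver, was the most variable member, with a coefficient of variation of 64.4%. It lies on chromosome 4 from 12754201 to 12767677. It measured 11.7, 3.15 and 4.05 CPM in HIGHGLUC, 4.20, 1.98 and 3.48 CPM in LOWAA and 5.99, 2.18 and 4.17 CPM in control libraries. HIGHGLUC replicate 6 stood above all others, and the lowest library of each group was the one in set 2. For HIGHGLUC over LOWAA the log2 fold change was 0.97 ± 0.54 (unadjusted p = 0.108, adjusted p = 1.00, edgeR), with set differences of 1.37, 0.56 and 0.19. Without HIGHGLUC replicate 6 it was 0.14 (adjusted p = 1.00, edgeR), so the value depended on that 1 library. That fit kept set 1, where PDK4 was highest in each group, in LOWAA but not in HIGHGLUC. With all libraries and the sets as a block it was 0.89 ± 0.26 (unadjusted p = 0.00246, adjusted p = 0.235, edgeR).

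In the pentose phosphate pathway PGD gives the second NADPH-forming step, RPIA isomerises the ribose phosphate, and TKT and TALDO1 pass carbon back to glycolysis. Of these 4 genes, 0 were called in any comparison, and their log2 fold changes lay between -0.08 and 0.08 for HIGHGLUC over control, -0.06 and 0.00 for LOWAA over control and -0.03 and 0.08 for HIGHGLUC over LOWAA. Summed over the 4 genes, their level was 502 ± 53.4 RPKM in HIGHGLUC, 498 ± 31.2 RPKM in LOWAA and 508 ± 48.9 RPKM in control libraries (SD, n = 3 each), differences smaller than the spread within each group. TALDO1 measured 235, 253 and 276 CPM in HIGHGLUC, 228, 236 and 268 CPM in LOWAA and 233, 258 and 243 CPM in control libraries. TKT measured 306, 392 and 438 CPM in HIGHGLUC, 359.7, 387 and 415 CPM in LOWAA and 334, 459 and 395 CPM in control libraries. In each group the lowest of the 3 libraries was the one in set 1, for both genes.

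In several members the libraries of 1 set lay together, whatever their group. This was seen in the data and is given as a description with no test. TKT, PGD and TALDO1 had all 3 libraries of set 1 below the other 6 libraries. TKT averaged 333 CPM in set 1, 413 CPM in set 2 and 416 CPM in set 3, and PGD averaged 231, 266 and 256 CPM in these sets. The 3 genes make 9.68% of the 31 members, beside 5.13% of all tested genes with set 1 entirely below. RPIA did not share this pattern, with 17.2 CPM in set 1, 15.6 CPM in set 2 and 14.5 CPM in set 3. Of 6 further tested pentose phosphate genes, 0 had set 1 entirely below. ENO2 and PDK4 had set 1 entirely above (6.45% of members, 6.06% of all genes), PFKFB2 had set 2 entirely above (3.23% and 4.06%), PDK4 and GFPT2 had set 2 entirely below (6.45% and 4.59%), and HK1 and GPI had set 3 entirely above (6.45% and 1.98%). No member had set 3 entirely below, as 1.73% of all genes did. The range of the 3 set means exceeded the range of the 3 group means in 23 of 31 members, or 74.2%, and in 65.2% of all tested genes. The median range was 0.17 for set means and 0.09 for group means on the log2 scale among members, and 0.21 and 0.16 among all tested genes. The summed stromal markers, of which FN1 (mean 10595 CPM) and COL3A1 (mean 5080 CPM) were the highest, moved with the sets as well. Set 3 had 25163, 24371 and 25337 CPM of them in HIGHGLUC, LOWAA and control, and the other 6 libraries had 20664 to 22056 CPM. Their part in the values of HK1 and GPI was not tested.

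**Figure D4:**
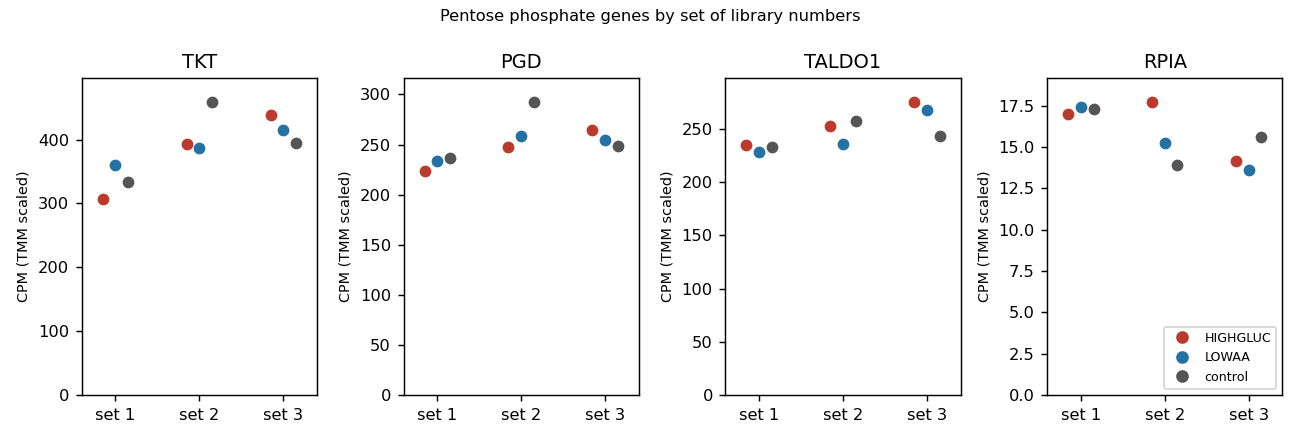
TMM-scaled CPM of TKT, PGD, TALDO1 and RPIA in the 3 libraries of each set, coloured by group. Set 1 lies below sets 2 and 3 for TKT, PGD and TALDO1, with TKT at 306 to 359.7 CPM in set 1, and RPIA does not share this order.

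Fructose phosphate enters the hexosamine route through GFPT1 and GFPT2, which make the amino sugar used for protein glycosylation, and UGP2 makes UDP-glucose for glycogen and glycans. GFPT2 was the major of the glutamine-fructose transaminase genes, at 3.65 to 6.16 times the RPKM of GFPT1. It measured 485, 385 and 478 CPM in HIGHGLUC, 423, 345 and 452 CPM in LOWAA and 437, 347 and 463 CPM in control libraries, with the lowest library of each group in set 2. UGP2 measured 133, 134 and 124 CPM in HIGHGLUC, 122, 110.2 and 126 CPM in LOWAA and 136, 115 and 137 CPM in control libraries, and the groups overlapped. Its log2 fold change was -0.11 ± 0.09 for LOWAA over control (unadjusted p = 0.235, adjusted p = 1.00, edgeR), with set differences of -0.16, -0.06 and -0.12. For HIGHGLUC over LOWAA it was 0.12 ± 0.09 (unadjusted p = 0.196, adjusted p = 1.00, edgeR), with set differences of 0.13, 0.28 and -0.03.

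Other genes around these pathways gave 0 calls as well, on lists drawn up by function. Of 6 further pentose phosphate genes, 6 had a positive log2 fold change for HIGHGLUC over control, with a median of 0.08, 5 for LOWAA over control and 4 for HIGHGLUC over LOWAA. PGM2, a phosphopentomutase, had the smallest p of them, at 91.4 ± 3.29 CPM in HIGHGLUC and 82.4 ± 2.67 CPM in control libraries (SD, n = 3 each; log2 fold change 0.15 ± 0.08, unadjusted p = 0.0979, adjusted p = 1.00, edgeR). RBKS, ribokinase, had 21.9 ± 1.5 CPM in HIGHGLUC and 18.8 ± 3.14 CPM in LOWAA libraries (unadjusted p = 0.188, adjusted p = 1.00, edgeR). Of 14 genes of glycogen and other sugar nucleotides, 11 were positive for HIGHGLUC over control, with a median of 0.08. For LOWAA over control 9 were positive, with a median of 0.07, and for HIGHGLUC over LOWAA 9, with a median of 0.02. Among the 14 genes UAP1, which makes UDP-N-acetylglucosamine, had 68.7 ± 1.67 CPM in HIGHGLUC and 60.7 ± 3.20 CPM in control libraries (log2 fold change 0.17 ± 0.07, unadjusted p = 0.0377, adjusted p = 1.00, edgeR). GBE1, the glycogen branching enzyme, had 40.0 ± 1.79 CPM in HIGHGLUC and 34.5 ± 1.40 CPM in LOWAA libraries (log2 fold change 0.21 ± 0.09, unadjusted p = 0.0450, adjusted p = 1.00, edgeR).

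Of 14 tested further genes of glycolysis and gluconeogenesis, 5 were positive for HIGHGLUC over control, 4 for LOWAA over control and 6 for HIGHGLUC over LOWAA. PKLR, the liver and red cell pyruvate kinase, stayed near the detection limit, at 0.855 ± 0.173 CPM in HIGHGLUC and 1.59 ± 0.729 CPM in control libraries (SD, n = 3 each; unadjusted p = 0.0472, adjusted p = 1.00, edgeR). ENO3, the muscle enolase, was also near that limit. It had 1.16 ± 0.206 CPM in HIGHGLUC and 1.80 ± 0.731 CPM in control libraries (unadjusted p = 0.0600, adjusted p = 1.00, edgeR). Of 10 further pyruvate and lactate genes, 5 were positive for HIGHGLUC over control, 3 for LOWAA over control and 3 for HIGHGLUC over LOWAA. SLC16A7, a monocarboxylate transporter, had 26.6 ± 7.22 CPM in HIGHGLUC and 19.6 ± 3.62 CPM in LOWAA libraries (unadjusted p = 0.0480, adjusted p = 1.00, edgeR). PDP1, the phosphatase that reverses the action of the PDK kinases, had 13.5 ± 0.543 CPM in HIGHGLUC and 16.6 ± 2.21 CPM in control libraries (log2 fold change -0.29 ± 0.14, unadjusted p = 0.0558, adjusted p = 1.00, edgeR).

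Of 19 tested genes of the tricarboxylic acid cycle, which oxidises the acetyl groups that pyruvate dehydrogenase supplies, 11 were positive for HIGHGLUC over control, 11 for LOWAA over control and 9 for HIGHGLUC over LOWAA. IDH3A, a subunit of the NAD-dependent isocitrate dehydrogenase, had 83.9 ± 5.37 CPM in LOWAA and 73.0 ± 5.60 CPM in control libraries (log2 fold change 0.20 ± 0.09, unadjusted p = 0.0458, adjusted p = 1.00, edgeR). IDH2, a mitochondrial NADP-dependent form, had 22.9 ± 1.58 CPM in LOWAA and 18.7 ± 3.55 CPM in control libraries (unadjusted p = 0.0905, adjusted p = 1.00, edgeR). Glycolytic genes are also known targets of the hypoxia response. Of 14 tested genes of that response, 9 were positive for HIGHGLUC over control, 2 for LOWAA over control and 11 for HIGHGLUC over LOWAA, with medians of 0.02, -0.11 and 0.11. MXI1, a MYC antagonist, had 51.4 ± 12.7 CPM in HIGHGLUC and 38.3 ± 6.17 CPM in LOWAA libraries (log2 fold change 0.42 ± 0.20, unadjusted p = 0.0606, adjusted p = 1.00, edgeR). NDRG1, a stress-response gene, had 168 ± 26.8 CPM in HIGHGLUC and 148 ± 6.45 CPM in LOWAA libraries (unadjusted p = 0.134, adjusted p = 1.00, edgeR). Of the 14 hypoxia genes, 5 (35.7%) had set 2 entirely below the other libraries with total reads, beside 4.59% of all tested genes. With unique reads 4 did, beside 363 of all 11839 tested genes. In the other lists, 1 of 14 glycogen and sugar nucleotide genes and 1 of 19 tricarboxylic acid cycle genes did with total reads. Of the further glycolysis, pentose phosphate and pyruvate genes 0 did.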

How the data were processed

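RNA of 9 BEEC libraries was sequenced, per the labels' protocols, as single reads of 50 bp, while the file headers call the libraries paired. The submitters' processing notes name Bowtie2, HTSeq 0.5.4p2 and the build UMD3.1 without their roles. The total exon, unique exon and intron reads deposited by the authors are raw read counts per gene, per the file headers. Per the file headers, the authors ran Baggerley's test: its fold change column is a score with a sign, and its corrected p-value column carries an FDR correction. Exon length, chromosome and gene position are other columns deposited by the authors. Of the library columns 167 were not used.

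Here edgeR 4.0.16 in R 4.3.3 was used: filterByExpr with a minimum count of 10, TMM factors, and a robust quasi-likelihood fit of group over all 9 libraries at once. P-values were Benjamini-Hochberg adjusted over all 11839 tested genes, with a threshold of 0.05. Standard errors are the log2 fold change divided by the root of F, and intervals are 95% intervals. Set differences are differences of log2(CPM + 0.5). Chi-square per degree of freedom between libraries of 1 group was 8.37 to 27.0, so none was a duplicate. Statistics are printed for the 4 members with the smallest p in each comparison, library values for these and the highest member of each role, and, of every other list, the 2 genes with the smallest p; further genes were named after their values were seen. The members and lists were chosen with earlier results of these data known. Alternatives were DESeq2 1.42.0, RLE size factors, no filter, unique reads, the sets as a block, both together, 2 groups at a time and leaving out each library. No genome of the build was used, so no sequences are shown.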

Additional observations from a re-analysis of the deposited data

How the results depend on the processing

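No member was called under any of the 16 alternatives to the values reported, and the 192 values for named genes kept their direction and their side of the threshold. The medians of the members stayed between 0.01 and 0.04 (HIGHGLUC over control), -0.02 and 0.02 (LOWAA over control) and -0.01 and 0.04 (HIGHGLUC over LOWAA), so the sign of the last 2 is not fixed. The number of all tested genes called, 0 in each comparison, moved. DESeq2 called 4 genes for LOWAA over control and 3 for HIGHGLUC over LOWAA. The replicate block, with the sets as a term, called 3, 19 and 17 genes for HIGHGLUC over control, LOWAA over control and HIGHGLUC over LOWAA, and with unique exon reads 7, 57 and 36. At an unadjusted p under 0.05 the block gave 2 members for HIGHGLUC over control (PDK2 and PDHA1; 6.66% of all genes), 1 for LOWAA over control (PFKFB3; 8.27%) and 2 for HIGHGLUC over LOWAA (PDK4 and GFPT2; 8.08%). The block's unadjusted p from edgeR was 0.0203 for PDK2 (adjusted p = 0.641) and 0.00246 for PDK4 (adjusted p = 0.235). With unique reads it gave 3 (PDK2, PDK4 and PGK1; 7.11%), 1 (PFKFB3; 9.27%) and 2 (PDK4 and GFPT2; 9.01%). Leaving out 1 library gave 0 to 1 of all tested genes called for LOWAA over control (1 without HIGHGLUC replicate 6). In the other comparisons it gave 0 of all tested genes called. The cause was not tested. Same-set libraries correlated after removal of group means by 0.022 to 0.606 with total reads (7 of 9 pairs above 0.1). With unique reads they correlated by 0.198 to 0.452 (9 of 9 pairs above 0.1). Pairs from different sets ran from -0.702 to 0.421 with total reads (6 of 18 above 0.1). With unique reads such pairs ran from -0.367 to 0.032 (0 of 18 above 0.1). Because group means were removed, positive same-set values push the values of different-set pairs down by construction. The different-set values are therefore no separate evidence of pairing. The labels do not pair the libraries, so the block was not the basis of the values reported. With unique reads and the block the smallest adjusted p among the named results were 0.101 for PDK4 (HIGHGLUC over LOWAA) and 0.166 for PFKFB3 (LOWAA over control), edgeR. Leaving out single libraries moved the log2 fold change of PDK4 for HIGHGLUC over LOWAA between 0.14 and 1.28, that of PFKFB3 for LOWAA over control between 0.30 and 0.62 and that of PDK2 for HIGHGLUC over control between 0.25 and 0.51. Depth limits genes with few reads, such as SLC16A3 (2 to 11 reads in a library), PFKFB4 (12 to 77) and PDK4 (16 to 103).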
